A study of Mus musculus with 15 samples.

Results

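The 9 genes Snap25, Stx1a, Vamp2, Syt7, Rab3a, Rims2, Unc13a, Cplx1 and Scg2 encode proteins that dock, prime and fuse hormone granules, or that fill them. They were taken by symbol from the deposited gene table, where all 9 of 9 were found among 48709 genes, and all 9 passed the filter on low counts that left 16554 genes for testing. RNA was sequenced from pancreatic islets of NOD mice, an inbred strain that develops autoimmune diabetes, at 4, 6, 8, 10 and 12 weeks of age. There were 3 females at each age and 15 in all, each a different animal. No mouse carried a transgene, a deletion or a treatment, and no diabetes-resistant strain was included, so age and the course of disease cannot be told apart. Islets were freed from the pancreas by collagenase and picked by hand, so each sample held every cell type in or around the islet. Each library held 25407492 to 41616275 counted reads.

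Endocrine cells keep peptide hormones in dense-core granules and release them when calcium enters. Fusion is driven by the SNARE complex, in which Vamp2 on the granule binds Stx1a and Snap25 at the plasma membrane. Rab3a, Rims2 and Unc13a (Munc13-1) tether and prime the granule beforehand, Syt7 senses calcium, complexins such as Cplx1 hold and then release the assembled SNAREs, and Scg2 (secretogranin II) is a cargo protein of the granule core. The same machinery works in neurons. Related proteins also serve vesicle fusion, such as Snap23 and Vamp8 in many cell types and Stx11 and Unc13d in leukocytes.

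Between 4 and 12 weeks, 8 of the 9 genes fell, by 30.1% (Vamp2) to 49.4% (Scg2), and Cplx1 did not pass the test, with a fitted difference of -0.644%. These are changes in CPM (read counts scaled to a fixed library size) after TMM scaling, a scaling in which most genes are taken to stay level. All 3 mice of 12 weeks lay below all 3 mice of 4 weeks for each of the 8. Fitted differences were negative for 8 of the 9 genes at 8 against 6 weeks, 8 at 10 against 8 and 9 at 12 against 10, but only 1 such step passed the test, that of Unc13a between 8 and 10 weeks. At 12 against 4 weeks 11 of 11 leukocyte markers in the table were called higher. In RNA of whole islets, fewer endocrine cells, less RNA per endocrine cell and added RNA of other cells cannot be told apart.

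The genes were ordered by abundance on the deposited TPM scale (transcript levels scaled to a fixed total, which corrects for transcript length within a sample). At 4 weeks Scg2 stood at 3943 ± 209 TPM (mean ± SD, n = 3 here and below), far above the machinery that releases it. Vamp2 followed at 113 ± 2.54 TPM, Syt7 at 92.1 ± 4.22, Rab3a at 81.2 ± 11.6 and Snap25 at 42.8 ± 0.950. Unc13a stood at 21.0 ± 0.775 TPM, Rims2 at 13.0 ± 0.616, Stx1a at 11.4 ± 1.07 and Cplx1 at 4.84 ± 1.63. The mice overlapped between 2 neighbours in this order at 4 weeks, Syt7 with Rab3a and Rims2 with Stx1a. The order of the means was the same at 12 weeks, with Scg2 at 2602 ± 259 TPM and Cplx1 at 6.25 ± 0.463. The other complexin of the islet, Cplx2, stood at 208 TPM at 4 weeks and 164 TPM at 12 weeks.

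The sequence upstream of the start is shown for Scg2, the most abundant of the 9 and the one with the largest fall, for Unc13a, the only one with a 2-week step that passed the test, and for Cplx1, the one that did not pass the test. RefSeq promoter windows on GRCm38.p6 were at hand for 5 of the 9 genes, and Snap25, Vamp2, Syt7 and Rims2 are named only. The 250 bases before the RefSeq start are printed 5′ to 3′ on the gene's own strand, which is the minus strand for all 3. Capitals mark TGACGTCA (the cAMP response element) in Scg2, the GC box GGGCGG, read here as CCGCCC, in Unc13a and Cplx1, and the E box CAGCTG in Cplx1.
Scg2, chr1:79440027-79440276: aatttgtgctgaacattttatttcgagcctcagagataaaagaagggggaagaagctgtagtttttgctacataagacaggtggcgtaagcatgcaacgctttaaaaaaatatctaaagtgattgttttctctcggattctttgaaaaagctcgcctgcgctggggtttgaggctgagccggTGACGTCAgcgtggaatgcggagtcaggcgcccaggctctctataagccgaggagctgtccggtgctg
Unc13a, chr8:71671758-71672007: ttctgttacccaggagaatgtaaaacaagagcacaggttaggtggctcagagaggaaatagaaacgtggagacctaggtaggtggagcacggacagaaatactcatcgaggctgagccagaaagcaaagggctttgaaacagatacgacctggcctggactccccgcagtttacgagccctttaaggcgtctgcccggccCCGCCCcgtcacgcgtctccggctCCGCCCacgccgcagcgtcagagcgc
Cplx1, chr5:108550028-108550277: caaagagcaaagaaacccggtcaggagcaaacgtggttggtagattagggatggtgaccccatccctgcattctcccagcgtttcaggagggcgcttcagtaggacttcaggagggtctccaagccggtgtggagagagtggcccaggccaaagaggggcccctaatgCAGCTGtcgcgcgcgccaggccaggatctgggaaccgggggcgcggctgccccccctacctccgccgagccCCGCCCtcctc
Both strands of the windows, from 250 bases before to 50 after the start, were searched for these motifs and for the E box CAGATG; none of those in capitals overlaps another. TGACGTCA lay in 1 of the 5 genes, Scg2, with its first base 68 bases before the start, and in 1.79% of all 32851 windows. GGGCGG lay in 4 of the 5, Unc13a, Cplx1, Stx1a and Rab3a, and in 35.7% of all windows. CAGCTG lay in 3 of the 5, Cplx1, Stx1a and Rab3a, and in 16.3% of all windows, while CAGATG lay in 0 of the 5 and in 17.2% of all. The deposited table starts Scg2 at 79440120, inside the window printed here, so the start used for counting differs from that of RefSeq.

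The plasma membrane SNARE Snap25 lay on chromosome 2 (136713453-136782428, plus strand, GRCm38). It stood at 147, 153 and 153 CPM in the 3 mice of 4 weeks, 138, 168 and 173 at 6 weeks, 139, 121 and 115 at 8 weeks, 88.0, 107 and 135 at 10 weeks, and 91.1, 99.8 and 81.8 at 12 weeks. The mice of 12 weeks lay below all those of 4, 6 and 8 weeks, and those of 10 weeks spread over both ranges. The difference of 12 against 4 weeks was -0.73 on the log2 scale (SE 0.138, edgeR adjusted p = 0.00105).

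Stx1a, its partner at the plasma membrane, lay on chromosome 5 (135023482-135051100, plus strand). Its CPM values were 16.6, 16.3 and 14.4 at 4 weeks, 14.5, 15.3 and 17.9 at 6 weeks, 15.5, 12.8 and 13.0 at 8 weeks, 11.2, 11.0 and 13.1 at 10 weeks, and 11.4, 11.2 and 10.2 at 12 weeks. The 6 mice of 10 and 12 weeks all lay below the 6 of 4 and 6 weeks. The log2 difference of 12 against 4 weeks was -0.53 (SE 0.114, adjusted p = 0.0022 by edgeR).

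Vamp2, the SNARE of the granule membrane, lay on chromosome 11 (69088490-69092384, plus strand). The mice held 213, 228 and 232 CPM at 4 weeks, 242, 259 and 259.7 at 6 weeks, 226, 182 and 197 at 8 weeks, 136, 174 and 205 at 10 weeks, and 155, 166 and 149 at 12 weeks. The highest values were at 6 weeks, where each mouse exceeded the 3 of 4 weeks, although this step did not pass the test (adjusted p = 0.779, edgeR). At 12 against 4 weeks Vamp2 differed by -0.52 (log2, SE 0.122, edgeR adjusted p = 0.00379).

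**Figure D1:**
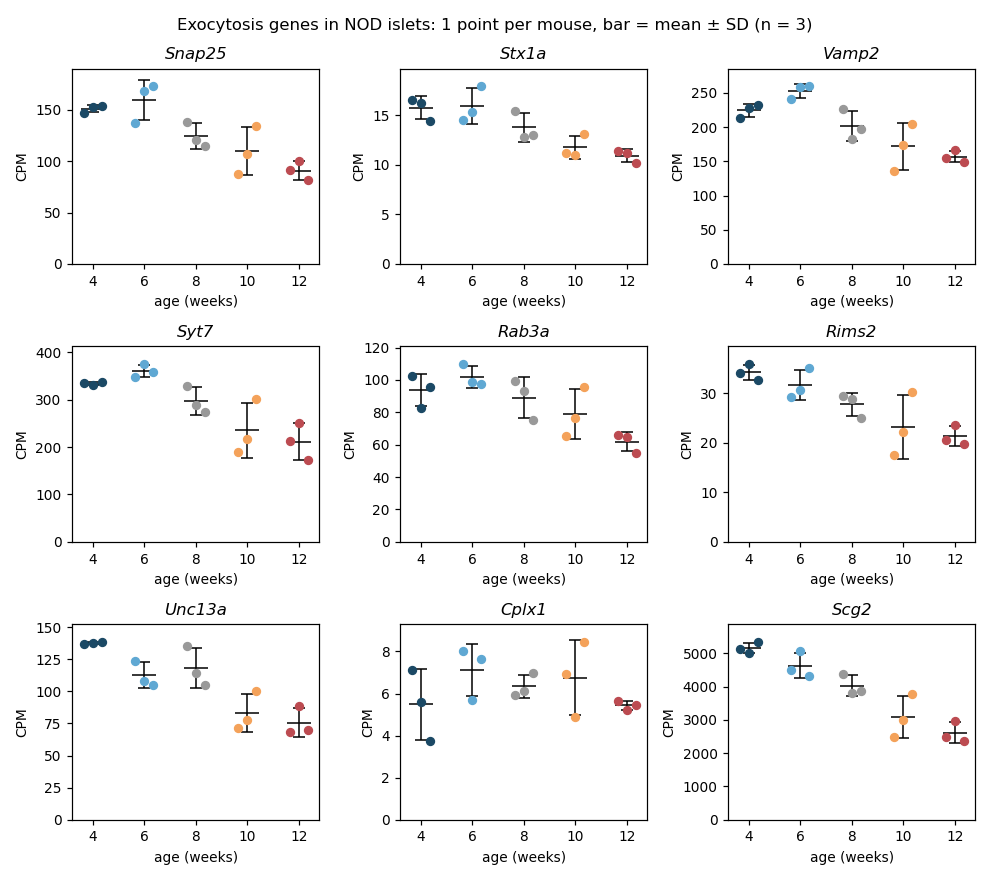
Normalised read counts (CPM, TMM-scaled, linear axis from 0) of the 9 exocytosis genes against age in weeks. Each point is 1 mouse and the black bars give the mean and SD of 3 mice; for 8 genes the 12-week points lie below the 4-week points, and for Cplx1 they lie within the 4-week range of 3.73 to 7.11 CPM.

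The calcium sensor Syt7 lay on chromosome 19 (10389090-10453181, plus strand). Counts stood at 335, 330 and 337 CPM at 4 weeks, 348, 375 and 358 at 6 weeks, 330, 288 and 274 at 8 weeks, 189, 216 and 301 at 10 weeks, and 212, 250 and 173 at 12 weeks. As for Vamp2, the 6-week mice were the highest and the 8-week mice lay below all of them. The fall from 4 to 12 weeks was -0.66 on the log2 scale (SE 0.157, edgeR adjusted p = 0.00394).

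Rab3a, the small GTPase on the granule, lay on chromosome 8 (70754679-70758677, plus strand), where 29 bases overlap Mpv17l2 on the other strand. It measured 103, 82.9 and 95.7 CPM at 4 weeks, 110, 98.4 and 97.4 at 6 weeks, 99.1, 93.3 and 75.0 at 8 weeks, 65.2, 76.5 and 95.4 at 10 weeks, and 65.7, 65.0 and 55.1 at 12 weeks. The mice of 4, 6 and 8 weeks overlapped, and all 3 of 12 weeks lay below them. Rab3a fell by 0.60 on the log2 scale from 4 to 12 weeks (SE 0.140, edgeR adjusted p = 0.00362).

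Rims2, which binds Rab3 at the release site, lay on chromosome 15 (39198332-39681940, plus strand). Its values were 34.1, 35.9 and 32.7 CPM at 4 weeks, 29.2, 30.8 and 35.1 at 6 weeks, 29.4, 29.0 and 25.1 at 8 weeks, 17.5, 22.1 and 30.3 at 10 weeks, and 20.6, 23.7 and 19.9 at 12 weeks. Replicate 3 of 10 weeks, at 30.3 CPM, lay among the mice of 6 weeks. The difference at 12 against 4 weeks was -0.68 (log2, SE 0.157, edgeR adjusted p = 0.00335).

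Unc13a, the priming factor, lay on chromosome 8 (71624417-71671757, minus strand). It held 137, 137 and 138 CPM in the mice of 4 weeks, 124, 108 and 105 at 6 weeks, 135, 114 and 105 at 8 weeks, 71.8, 77.3 and 100.3 at 10 weeks, and 68.6, 88.6 and 69.9 at 12 weeks. Unc13a was the only one of the 9 whose 6-week mice all lay below the 4-week mice, a step of -0.29 with an unadjusted p of 0.05 and an adjusted p of 0.576 (edgeR). Between 8 and 10 weeks it fell by 0.51 (log2, SE 0.135, edgeR adjusted p = 0.032), and between 4 and 12 weeks by 0.86 (SE 0.135, adjusted p = 0.000439). The gene overlaps Colgalt1 on the other strand by 495 bases, and whether counting used the strand is not given in the sources used here. Over the 15 mice Unc13a had 45533 counts and Colgalt1 34807.

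Scg2, the granule cargo protein, lay on chromosome 1 (79434669-79440120, minus strand). The CPM values were 5123, 5016 and 5333 at 4 weeks, 4511, 5056 and 4322 at 6 weeks, 4382, 3816 and 3879 at 8 weeks, 2495, 2987 and 3773 at 10 weeks, and 2489, 2971 and 2368 at 12 weeks. The 6 mice of 10 and 12 weeks lay below the 9 younger mice. Scg2 fell by 0.98 on the log2 scale from 4 to 12 weeks, which left 0.506 of the 4-week level (SE 0.141, edgeR adjusted p = 0.00031).

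Cplx1, the SNARE-binding complexin of low abundance in these islets, lay on chromosome 5 (108518554-108550024, minus strand). It measured 7.11, 5.60 and 3.73 CPM at 4 weeks, 8.00, 5.68 and 7.65 at 6 weeks, 5.91, 6.13 and 6.96 at 8 weeks, 6.95, 4.87 and 8.44 at 10 weeks, and 5.64, 5.22 and 5.47 at 12 weeks. The 3 mice of 12 weeks lay within the range of the 4-week mice and just below those of 6 and 8 weeks. The log2 difference of 12 against 4 weeks was -0.01 with a 95% interval of -0.52 to 0.50 (edgeR adjusted p = 0.978), so a fall as large as that of Vamp2 (-0.52) lay at the edge of that interval. Cplx1 had 103 to 254 counts per mouse, the fewest of the 9, and the sign of its difference turned under 7 other scalings, tools or choices of samples and when single mice were left out.

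The comparison of the age extremes called 8 of the 9 genes lower by edgeR's quasi-likelihood test at an adjusted p under 0.05, against 27.2% of all genes tested. The median log2 difference of the 9 was -0.66, against -0.05 over all 16554 genes. By the threshold used in the study, a fold change of at least 1.5 and an unadjusted p under 0.05, 6 of the 9 were lower, against 11.0% of all genes; Stx1a and Vamp2 missed the fold. The 3 mice of 12 weeks did not overlap the 3 of 4 weeks and were lower for 8 of the 9, against 33.9% of all genes.

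The number of genes that passed moved with the scaling. Transcripts of the hormones Ins1, Ins2, Gcg, Sst and Ppy made up 46.8% to 48.4% of TPM at 4 weeks and 30.8% to 35.3% at 12 weeks, and on the deposited TPM scale the median of all genes tested moved by 0.38 (log2) from its place under TMM, to 0.33. A limma fit of log2(TPM + 0.1), chosen after the data were seen, called 3 of the 9 genes lower at 12 against 4 weeks, against 5.90% of all genes: Scg2 at -0.60 (adjusted p = 0.0036), Unc13a at -0.48 (adjusted p = 0.00451) and Snap25 at -0.35 (adjusted p = 0.0232). The remaining 5 that had passed under TMM kept a negative difference on that scale, from -0.29 (Rims2) to -0.13 (Vamp2), and Cplx1 stood at 0.42 with an adjusted p of 0.176. The same limma fit on TMM-scaled log2 CPM, also added after the data were seen, called 8 of the 9, against 27.4% of all genes. With plain library totals edgeR called 7, and the share of all genes there is not given here. Measured from the median of all genes on each scale, the 8 genes lay lower by like amounts. For Snap25 that distance was -0.69 under TMM and -0.68 on TPM, and for Vamp2 it was -0.47 and -0.46. Falls given here are therefore relative to the bulk of the transcriptome in the same RNA.

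**Figure D2:**
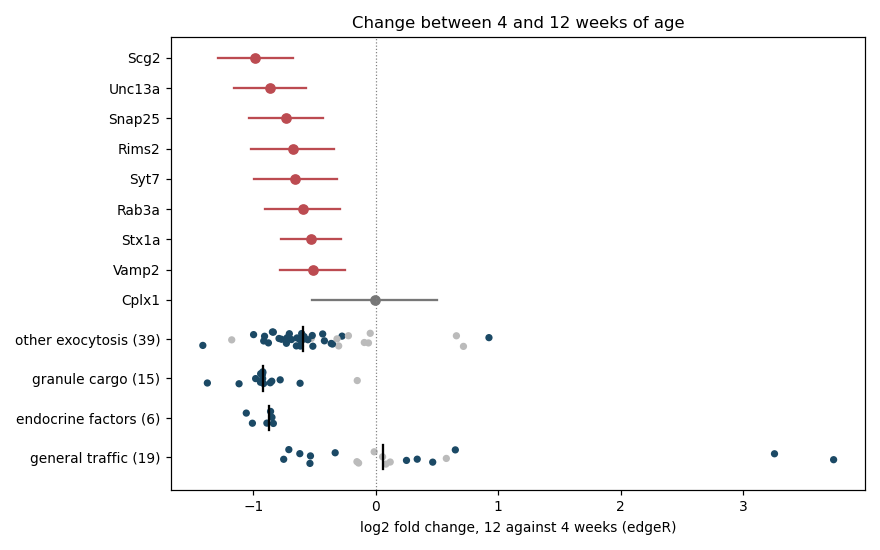
Log2 fold change of 12 against 4 weeks (edgeR, TMM) for the 9 genes, with 95% intervals in red where the adjusted p was under 0.05 and grey otherwise, and for the genes of 4 further lists. Each small point is 1 gene, dark blue where the adjusted p was under 0.05, and the black bar is the list's median, from -0.92 for granule cargo to 0.06 for general traffic.

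Across consecutive ages few single steps passed the test. At 6 against 4 weeks 0 of the 9 genes were called by edgeR, against 0.0846% of all genes called lower. DESeq2 and edgeR's exact test also called 0 of the 9. Both called more of all genes than edgeR's quasi-likelihood test, which called 15 of 16554. For the exact test the count was 265 of 15270 genes. Unc13a had an unadjusted p of 0.05 in the quasi-likelihood test. At 8 against 6 weeks 0 of the 9 and 0% of all genes were called by edgeR. The other tools called 0 of the 9, against 543 of 16554 genes (DESeq2) and 160 of 15520 (exact test). At an unadjusted p under 0.05 there were 2 of the 9, Snap25 (-0.36) and Vamp2 (-0.33), with adjusted p-values of 0.217 and 0.209 by edgeR. At 12 against 10 weeks 0 of the 9 and 0% of all genes were called by edgeR. The other tools again called 0 of the 9, against 12 of 16554 genes (DESeq2) and 7 of 16139 (exact test). Rab3a alone had an unadjusted p under 0.05 in edgeR (-0.35, adjusted p = 0.616).

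The step from 8 to 10 weeks called 1 of the 9 lower, Unc13a, against 8.37% of all genes. Scg2 had an unadjusted p under 0.05 as well (-0.38, edgeR adjusted p = 0.0714). The count of 1 rested on single mice. Replicate 3 of 10 weeks was the highest of its age for 9 of the 9 genes, and its leukocyte markers averaged 5.37 log2 CPM against 6.64 and 6.19 in the other 10-week mice. Without it 6 of the 9 were called lower (Unc13a, Scg2, Syt7, Rims2, Vamp2 and Snap25), and 0 were called without replicate 1 or 2 of 10 weeks or replicate 1 or 2 of 8 weeks. The shares of all genes called without these mice are not given here, so these counts are not read as particular to the 9 genes. Among the 8-week mice replicate 1 was the highest for 8 of the 9 genes, and its leukocyte markers averaged 2.28 against 4.52 and 5.20. The part of leukocyte content in these differences between mice of 1 age was not tested.

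**Figure D3:**
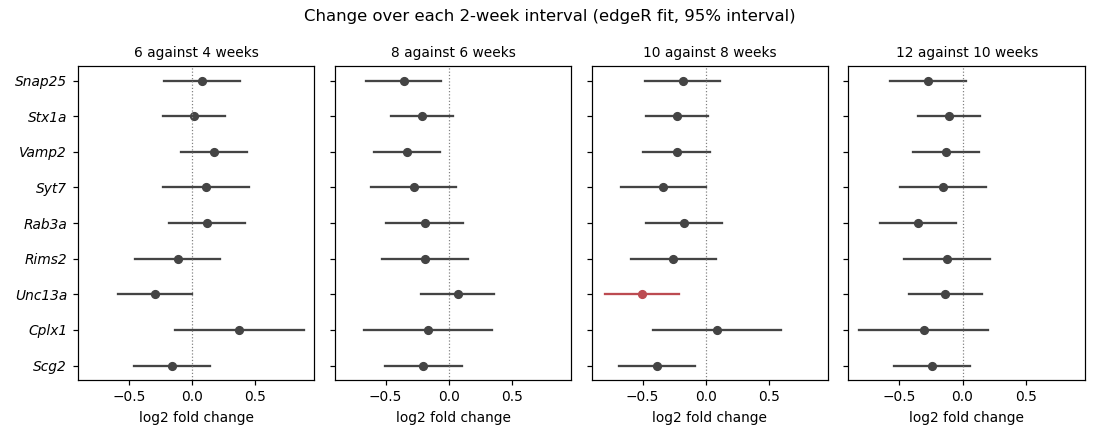
Fitted log2 fold change of each of the 9 genes over the 4 intervals between consecutive ages, with 95% intervals (edgeR, TMM). Unc13a at 10 against 8 weeks, drawn in red at -0.51, is the one step with an adjusted p under 0.05; most other intervals after 6 weeks lie to the left of 0 but reach it.

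Joining ages gave 6 mice against 6. At 10 and 12 against 4 and 6 weeks, 8 of the 9 genes were lower by edgeR, against 33.7% of all genes, with a median log2 difference of -0.56 against -0.05 over all genes. The differences ran from -0.48 (Rab3a, adjusted p = 0.000989) to -0.78 (Scg2, adjusted p = 4.31e-05), and Cplx1 differed by -0.04 with a 95% interval of -0.40 to 0.32. All 6 older mice lay below all 6 younger mice for 6 of the 9 genes, against 17.0% of all genes. On the TPM scale 5 of the 9 passed (Scg2, Unc13a, Snap25, Syt7 and Vamp2), against 7.94% of all genes. The joint test of any difference among the 5 ages called 8 of the 9, against 56.0% of all genes, and 2 of the 9 on the TPM scale, against 56.3% of all genes.

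The leukocyte markers (among them Ptprc, the T cell genes Cd3e, Cd3d, Cd8a and Cd4, the B cell genes Cd79a and Ms4a1, and the myeloid genes Csf1r, Lyz2 and Cd68) summed to 33.9 to 185 CPM in the mice of 4 weeks and 1602 to 1877 at 12 weeks, and none was at 0 in all mice. Mesenchymal markers rose for 5 of 5 genes, endothelial for 2 of 3 and Schwann cell markers for 2 of 4, while 0 of 6 acinar markers were called. Intestinal markers summed to 126 CPM in replicate 1 of 12 weeks, against 45.5 and 36.9 CPM in the other 12-week mice. Of 7 neuronal markers 2 were lower, 0 higher and 5 did not pass. With the mean of the 11 leukocyte markers as a covariate, 0 of the 9 genes and 0 of all genes tested were called at 12 against 4 weeks. The fitted differences of the 9 were negative in that fit, from -0.62 (Scg2), -0.57 (Stx1a), -0.56 (Rims2) and -0.54 (Snap25) to -0.23 (Rab3a) and -0.20 (Vamp2). Their edgeR adjusted p-values ran from 0.419 (Scg2) to 0.81 (Vamp2). Cplx1 stood at -0.47 there, against -0.01 without the covariate. Leukocyte content rose with age in these mice, and the part of each cannot be told apart.

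Most other exocytosis genes listed were lower too. From a list of 39 chosen with earlier results of these data known, 28 were lower at 12 against 4 weeks, 1 was higher and 10 did not pass, with a median of -0.59 (log2). The largest falls were those of Syt5, a synaptotagmin of dense-core granules (-1.41, from 68.6 ± 3.93 to 25.8 ± 5.03 CPM), and Rab3b, a relative of Rab3a (-0.998). Rab27b, a granule GTPase, was the one that rose, by 0.92 from 3.68 ± 0.912 to 6.98 ± 0.677 CPM. Its far more abundant relative Rab27a, listed with the general trafficking genes, fell from 263 ± 5.90 to 171 ± 10.4 CPM. That was a log2 difference of -0.62 (edgeR adjusted p = 0.000512). The following were named after their values were seen. Syt13 (-0.92), Syt9 (-0.84), Syt14 (-0.73) and Syt4 (-0.42) fell too. Syt1, the main calcium sensor of synaptic vesicles, did not pass the test, at -0.05 (95% interval -0.35 to 0.26).

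Further genes of the list are named here with their values known. Cadps, which primes dense-core granules, fell by 0.64 on the log2 scale. The granule-binding Sytl4 (granuphilin) fell by 0.69 and Rimbp2, which links Rims to calcium channels, by 0.88. The 3 voltage-gated calcium channel genes listed fell by 0.91 (Cacna1d), 0.71 (Cacna1a) and 0.65 (Cacna1c). On the TPM scale Syt13, Syt9, Sytl4, Rimbp2 and Cacna1d still passed, and Cadps, Syt4, Syt14, Cacna1a and Cacna1c did not. At 10 and 12 against 4 and 6 weeks 34 of the 39 were lower, 1 was higher and 4 did not pass.

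The contents of the granule fell further than the machinery, in medians. Of 15 cargo and granule membrane genes 14 were lower at 12 against 4 weeks and 1 did not pass, with a median of -0.92. Vgf, a granin-like precursor, fell by 1.38 (53.2 ± 7.22 to 20.5 ± 3.86 CPM) and Cpe, the carboxypeptidase that trims prohormones, by 1.12. The prohormone convertases Pcsk2 (-0.98) and Pcsk1 (-0.92) and the granule protein Ptprn (-0.94), named after their values were seen, fell like Scg2. Chgb (chromogranin B), named for the same reason, did not pass, at -0.15 (95% interval -0.58 to 0.28). That value rested on 1 mouse: Chgb stood at 2004, 1839 and 2085 CPM at 4 weeks and at 2587, 1340 and 1411 CPM at 12 weeks, and without replicate 1 of 12 weeks it was -0.52 (edgeR adjusted p = 0.00306). The difference between these medians was not tested.

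Of 20 general and leukocyte trafficking genes listed, 19 were in the table: 6 were lower, 6 higher and 7 did not pass, with a median of 0.06. Over all genes 27.2% were lower and 26.3% higher in this comparison, so these counts lay near the background. Unc13d (Munc13-4), used for granule release by cytotoxic lymphocytes, rose from 1.83 ± 1.30 to 24.6 ± 4.49 CPM (log2 3.74). Stx11, a syntaxin of the same pathway, rose from 1.49 ± 1.09 to 14.3 ± 2.23 CPM (log2 3.26). The Rab GTPases Rab3d (-0.75) and Rab37 (-0.71) showed the largest falls of this list, and Rab37 did not pass on the TPM scale (adjusted p = 0.102, limma). The 6 endocrine transcription factors all fell, with a median of -0.87; Insm1 (-1.06) and Nkx2-2 (-1.01) fell most.

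In a difference between 2 genes of the same mouse the scaling of the library cancels. Each of the 9 genes was therefore compared with a counterpart, a related gene of the same or of other cells. The per-mouse difference in log2 CPM at 10 and 12 weeks (6 mice) was set against that at 4 and 6 weeks (6 mice). The test was a two-sided exact permutation test over 924 permutations, whose smallest p is 0.00216. Of 13 pairs 7 passed after Benjamini-Hochberg adjustment over the pairs. Pairs of other genes were not tested, and 63.8% of all genes passed singly between these ages by edgeR. The count of 7 is therefore not read as particular to the 9 genes. Snap25 fell against Snap23, its relative in most cells, by 0.96 (from 2.01 ± 0.184 to 1.05 ± 0.354, SD, n = 6), with all 6 older mice below all 6 younger ones (exact p = 0.00216, adjusted p = 0.00469). Vamp2 fell against Vamp8 by 0.74 and Stx1a against Stx4a by 0.88, each with the same separation and p. The same held for Syt7 against Syt11 (-0.52), Stx1a against Stx11 (-4.01) and Unc13a against Unc13d (-4.37). Between these ages Stx11 changed by 3.41 and Unc13d by 3.64 (log2, edgeR), against -0.48 for Stx1a and -0.65 for Unc13a. These last 2 differences were therefore mainly the rise of the counterpart.

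Of the remaining pairs 6 did not pass. Unc13a against Unc13b, the other Munc13 of endocrine cells, differed by -0.04 (exact p = 0.647, adjusted p = 0.647). Scg2 differed from Scg3, another granin of the granule, by -0.03 (exact p = 0.615), and Rab3a from Rab27a by 0.05 (exact p = 0.565) and from Rab3d by 0.20 (exact p = 0.0758). Vamp2 against Vamp3, a SNARE of recycling vesicles, differed by -0.18 (exact p = 0.156). Rims2 against Rims1 differed by -0.82 with an adjusted exact p of 0.0668, and Rims1 had 5 to 21 counts per mouse. In contrast, Cplx1 rose against Cplx2 by 0.78, from -6.48 ± 0.421 to -5.70 ± 0.358 (SD, n = 6), with 5 of 6 older mice above all younger mice (exact p = 0.00433, adjusted p = 0.00804). Cplx2 itself fell from 533 ± 28.5 to 323 ± 29.5 CPM between 4 and 12 weeks, while the test of Cplx1 did not pass.

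**Figure D4:**
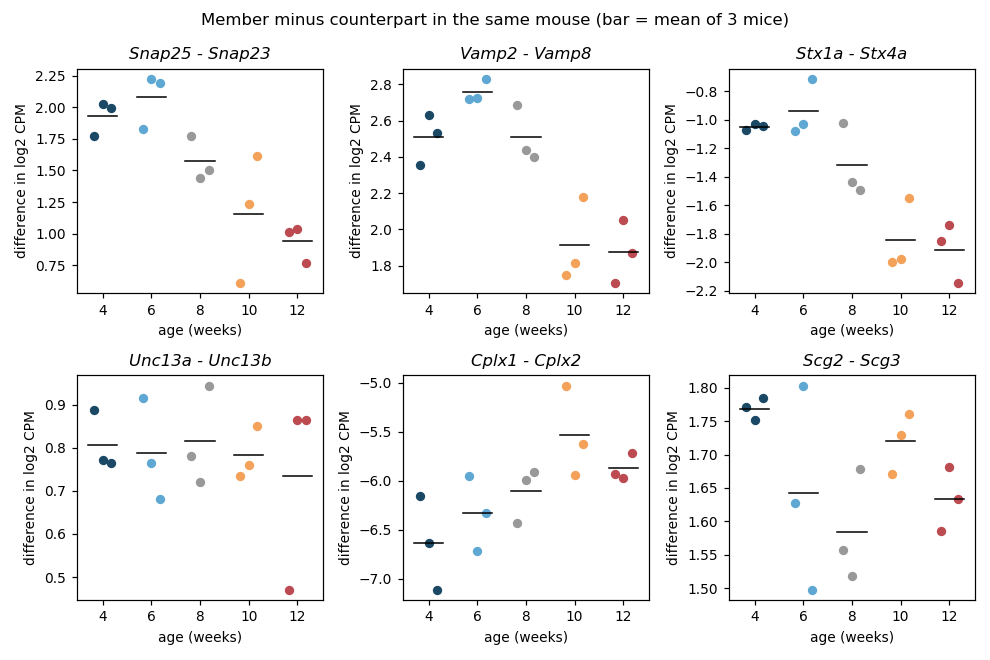
Difference in log2 CPM between an exocytosis gene and its counterpart in the same mouse, against age in weeks; each point is 1 mouse and the bar is the mean of 3 mice. Snap25 - Snap23, Vamp2 - Vamp8 and Stx1a - Stx4a are lower at 10 and 12 weeks than at 4 and 6, Cplx1 - Cplx2 is higher, and Unc13a - Unc13b and Scg2 - Scg3 overlap across ages (vertical axes differ between panels).

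Each gene was also set against the mean log2 CPM of the 6 endocrine transcription factors (Neurod1, Isl1, Pax6, Insm1, Nkx2-2 and Rfx6) in the same mouse. Relative to them 8 of the 9 genes were higher in the 6 older than in the 6 younger mice, by 0.16 (Unc13a) to 0.80 (Cplx1). For Cplx1 all 6 older mice lay above all 6 younger ones (exact permutation p = 0.00216, adjusted over all genes p = 0.00311). Scg2 tracked the factors, with a difference of 0.03 (exact p = 0.539) and a level above their mean of 4.76 ± 0.089 log2 units in older and 4.73 ± 0.064 in younger mice (SD, n = 6). Of all genes tested 85.3% were higher against this reference, so the count of 8 is not a result about these 9 genes. Against the mean of the 15 granule cargo genes 4 of the 9 were higher, Cplx1 (0.72), Stx1a (0.26), Rab3a (0.26) and Vamp2 (0.20), where 81.5% of all genes were higher.

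Among themselves the 9 genes made 36 pairs, tested in the same way. At an unadjusted exact permutation p under 0.05 there were 12 pairs, the 8 with Cplx1 and those of Scg2 with Stx1a, Vamp2, Rab3a and Rims2. After adjustment over the 36 pairs 0 passed, the lowest adjusted p being 0.0844. Scg2 lay lower against Stx1a by 0.32 and against Rab3a by 0.31 in the older mice. This count too rested on single mice, with 5 pairs passing without replicate 1 or replicate 3 of 6 weeks.

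The genes closest in pattern to each of the 9 were found as the smallest root mean square difference in log2 CPM, centred on each gene's mean, over the 15 mice. Scg2 was nearest to Pcsk2 (0.064 log2 units) and Aplp1 (0.067), and Unc13a to Rhobtb3 (0.092) and Neurod1 (0.095). Snap25 was nearest to Ric3 (0.062) and Slc4a7 (0.074), Syt7 to the potassium channel gene Kcnh2 (0.059) and Casc4 (0.064), and Vamp2 to Lrrc24 (0.059) and Nrbp2 (0.061). Stx1a was nearest to Mzt1 and Tmem87b, Rab3a to BC022687 and Slc33a1, and Rims2 to Tmem57 and Prps1, at 0.071 to 0.088. No gene lay as close to Cplx1, whose nearest were Rab6b (0.121) and Avil (0.122). Cplx1 had the fewest counts of the 9, 103 to 254 per mouse, and the part of counting noise in its distance was not tested.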

How the data were processed

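Per the labels, RNA was extracted from islets of NOD females with a column kit and enriched for polyadenylated RNA. The authors trimmed, aligned and counted reads per gene in CLC Genomics Workbench; the submitters' processing notes name mm10. The deposited counts are whole reads per gene with no normalization. The deposited TPM values were scaled by the authors for transcript length and total, and served to order levels and for an added alternative. The 30 RPKM and CPM columns were not used, and Vamp7 and Itgam were not analysed here.

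Counts of the 15 mice were fitted with edgeR 4.0.16 in R 4.3.3 (filterByExpr, 16554 of 48709 genes; TMM; glmQLFit, 1 mean per age; glmQLFTest), adjusted by Benjamini-Hochberg over all genes tested. The study's tool, an exact test of the edgeR kind, was an alternative, as were DESeq2 1.42.0, library totals, other filters, a replicate block, a leukocyte covariate, leaving out each mouse and limma 3.58.1 on log2(TPM + 0.1) and on TMM-scaled log2 CPM. CPM per mouse used TMM library sizes and log2 CPM a prior count of 2. Differences between genes were compared by two-sided exact permutation tests. The members and lists were chosen with earlier results of these data known; genes named were the 9, their counterparts, the 2 largest rises and falls of each list and the 2 nearest genes, others being marked in the text. Mice of 1 age differed by more than sampling noise (chi-square per degree of freedom 15.9 to 127 over genes with at least 20 counts), so all counted as separate samples. Same-numbered mice of different ages were different animals and their deviations showed no consistent positive correlation (-0.64 to 0.51 over 30 pairs, 7 above 0.1).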

Additional observations from a re-analysis of the deposited data

How the results depend on the processing

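The calls of 8 genes at 12 against 4 weeks and at 10 and 12 against 4 and 6 weeks were also made under the other filters, size factors and tools and without each mouse in turn (8 of 9 each time); library totals, which moved the median of all genes by 0.25 (log2), gave 7 at 12 against 4 weeks, with Vamp2 at an adjusted p of 0.0537. With the leukocyte covariate 0 of the 9 were called in both, at 10 against 8 weeks and over the 5 ages, where 55 of all genes were called. On TPM with limma 3 were called at 12 against 4 weeks, 5 at 10 and 12 against 4 and 6 and 2 over the 5 ages. That fit called 0 of the 9 at 10 against 8, where 2456 of all genes were called, 287 of them lower. Library totals gave 5 over the 5 ages. Shares of all genes called under library totals are not given here, so those counts are not read as particular to the 9. At 10 against 8 weeks the count was 0 with the replicate block and with the 2 ages alone. It was 0 by the exact test, which called 148 of 15894 genes, and 2 by DESeq2, which called 4096 of 16554. It ran from 0 to 6 when single mice were left out. The replicate block changed no other count of the 9; the numbers did not pair the mice.

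Cplx1 at 12 against 4 weeks turned positive with DESeq2 size factors (0.0491), library totals (0.233), 2 ages alone (0.0423), the exact test (0.0424), DESeq2 (0.0496), limma on TMM log2 CPM (0.0376) and TPM (0.416), and ran from -0.226 to 0.223 without single mice; Cplx1 at 10 and 12 against 4 and 6 weeks was 0.00729, 0.185, 0.00766 by DESeq2 and 0.328 on TPM, and -0.15 to 0.0745 without single mice. Syt1 at 12 against 4 weeks turned under the same size factors (0.0131), library totals (0.199), 2 ages (0.00621), the exact test (0.00612), DESeq2 (0.0129) and TPM (0.345), with -0.116 to 0.0891 without single mice. Chgb at 12 against 4 weeks turned with library totals (0.089), the covariate (0.137) and TPM (0.169), with -0.523 to 0.0153 without single mice. Syt11 at 12 against 4 weeks turned with library totals (0.105) and TPM (0.245). With the covariate Cplx1 was at -0.472, Rab27b at -0.0572, Stx11 at -1.72 and Unc13d at -0.139. Against granule cargo instead of the endocrine factors 4 genes were higher and Scg2 stood at -0.0525; without single mice 5 to 7 were higher, with 5 without replicate 2 or 3 of 10 weeks. Member pairs that passed ran from 0 to 5 without single mice. The cause of these differences was not tested. Precision was limited by 3 mice per age and, for Rims1, by 5 to 21 counts per mouse.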
